A study of Mus musculus with 300 samples.

Results

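ENSMUST00000047134_at is 1 of 34406 transcripts measured in the livers of 300 mice from a cross of 2 inbred strains. It was chosen by its measured values in the parental and F1 animals: high in MRL/MpJ (MRL) livers, near the floor of the array in SM/J (SM) livers, and spread over a wide range in F1 livers. Those values are therefore given as a description, the difference between the strains was not tested, and the sex contrasts within these animals support nothing. The gene table used here names no row of these data, so the transcript is called by its identifier, and no gene name, position or function is given.

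An intercross of inbred strains is a standard way to find variants that set transcript levels. Every F1 animal is heterozygous wherever the strains differ, and F2 animals reshuffle the parental alleles. At a single autosomal locus, 25% of F2 animals are expected to carry each parental homozygote and 50% to be heterozygous. A transcript controlled mainly by 1 such locus can then fall into separate levels in F2, and transcripts that share the locus, or a nearby one, can vary with it. Genotypes of the animals were not used here, so no level below is assigned to a genotype.

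The groups were MRL males and females, F1 males and females, SM males and females (3 animals in each of these 6 groups) and 282 F2 animals, of which 52.1% were male, 12 more males than females. MRL mice were mated with SM males to give F1, and F1 animals were intercrossed to give F2. All mice were untreated, ate chow, were 13 weeks old and were fasted for some hours before the liver was taken. Each array held the total RNA of 1 liver, and values are log2 expression values made by the authors with robust multi-array averaging (RMA), so a difference of 1 is a 2-fold difference. Hybridisation took place in 14 batches, each with 2 to 25 arrays, and the 18 parental and F1 arrays fell in 10 of them. Liver markers could not be checked because rows were not named.

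Sex labels were checked before any comparison with a score over 51 sex-dependent transcripts, on which parental males average 1 and parental females average -1. The library labelled F1 male 1146 scored -0.97, on the female side. Of the F2 libraries, 1 labelled male (2308, score -0.04) and 3 labelled female (2116 at -0.05, 2295 at -0.09 and 2122 at -0.40) lay between the sexes. Apart from these, F2 males scored between 0.51 and 1.13 and F2 females between -1.38 and -0.59. The 5 libraries of doubtful sex stay in the comparisons as labelled, and the main tests were repeated without them.

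In MRL livers the transcript was among the well-expressed ones, and in SM livers it was low. It measured 9.13 (animal 6), 9.15 (animal 8) and 9.39 (animal 7) in MRL males, and 8.38 (animal 3), 8.66 (animal 2) and 8.73 (animal 1) in MRL females. In SM males it measured 6.24 (animal 8), 6.31 (animal 7) and 6.41 (animal 6), and in SM females 6.16 (animal 3), 6.36 (animal 1) and 6.44 (animal 2). No MRL animal overlapped an SM animal, and the 3 MRL males lay above the 3 MRL females while the SM sexes overlapped. Among all transcripts of its array it stood at the 92.5th to 94.0th percentile in MRL males and the 86.9th to 90.2nd in MRL females, against the 30.2nd to 34.1st in SM males and the 25.9th to 39.7th in SM females. The mean was 9.22 ± 0.15 in MRL males and 6.32 ± 0.09 in SM males (SD, n = 3 each), a difference of 2.90 log2 units or 7.49-fold. In females it was 8.59 ± 0.19 in MRL and 6.32 ± 0.14 in SM (SD, n = 3 each), a difference of 2.27 or 4.83-fold. The SM values were taken as near the floor of the array, and no background measure was used here. Whether the floor narrowed either fold was not tested. In whole liver, a lower level per cell and fewer cells that carry the transcript cannot be told apart.

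The strains met in few batches. Batch 1 held MRL male 6 at 9.13 and SM male 8 at 6.24. Batch 2 held MRL males 7 and 8 at 9.39 and 9.15 and SM male 7 at 6.31. Batch 7 held MRL female 3 at 8.38 and SM female 2 at 6.44. The MRL animals were higher in each of these 3 batches.

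F1 livers did not sit together. The 3 libraries labelled F1 male measured 8.29 (1146), 8.49 (1152) and 9.00 (1151), with a mean of 8.59 ± 0.36 (SD, n = 3). F1 females measured 6.04 (1145), 7.96 (1150) and 7.96 (1149), with a mean of 7.32 ± 1.11 (SD, n = 3). A single animal, F1 female 1145, carried the whole width of the female range: it lay below every SM female, while the other two were at the same level to 2 decimals. With the SM mean of the same sex set to 0 and the MRL mean to 1, the F1 animals stood at 0.92 (1151), 0.75 (1152), 0.72 (1149), 0.72 (1150), 0.68 (1146) and -0.12 (1145). Against the female parents, to which its score points, library 1146 stood at 0.87. The 5 animals other than 1145 thus lay nearer the MRL than the SM mean.

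**Figure D1:**
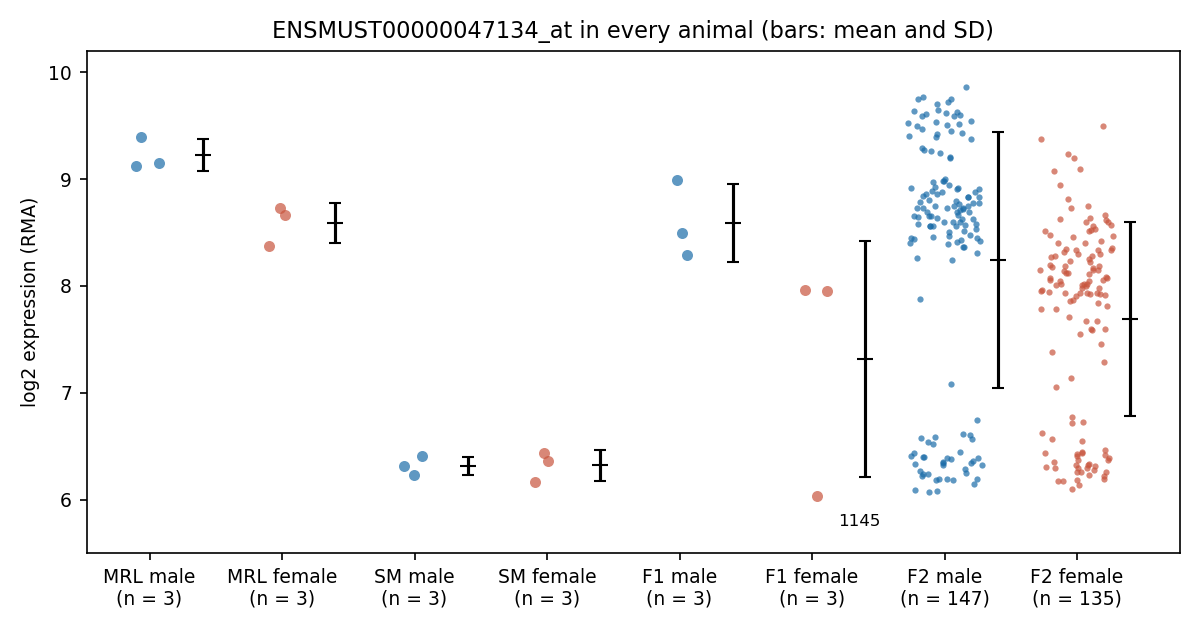
Level of ENSMUST00000047134_at (log2, RMA) in every animal by group; points are animals (blue, male; red, female) and bars are the group mean and SD. MRL animals lie at 8.38 and above and SM animals at 6.44 and below, F1 female 1145 lies at 6.04, and F2 animals cover the whole range with empty stretches between.

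The F2 animals carried the full parental range within each sex. F2 males ran from 6.07 to 9.86 with a median of 8.65 and quartiles of 6.68 and 8.96. F2 females ran from 6.10 to 9.49 with a median of 7.98 and quartiles of 6.67 and 8.31. Few transcripts varied as much: the SD of 1.20 in F2 males ranked 2 of 34406, where the median transcript had an SD of 0.11, and the SD of 0.91 in F2 females ranked 13. The spread of values over the whole array, which ran from 1.18 to 1.33 between arrays, had a correlation of 0.0081 with this transcript over the 282 F2 animals.

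F2 males fell into 3 separate levels. A normal mixture, with the number of components set by the Bayesian information criterion, placed 39 males (26.5%, exact 95% interval 19.6 to 34.4%) in a low group between 6.07 and 7.08 with a mean of 6.37. A middle group of 75 males (51.0%, 42.7 to 59.3%) ran from 7.88 to 9.00 with a mean of 8.66. A high group of 33 males (22.4%, 16.0 to 30.1%) ran from 9.20 to 9.86 with a mean of 9.51. The 3 shares lie beside the 25%, 50% and 25% of the single-locus expectation, each of which falls inside its interval. Control by a single locus was not tested. The common SD of the components was 0.20, against steps of 2.29 log2 units between the low and middle means and 0.85 between the middle and high means. The levels were thus unevenly spaced on the log2 scale, with the middle one closer to the high one.

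The widest empty stretch among F2 males was 0.80 log2 units, between 7.08 and 7.88, with 39 males below it. The male at its lower edge, at 7.08, was library 2308, whose sex transcripts lay between the sexes. The next male below it was at 6.74. The SM male mean of 6.32 lay just under the low mean of 6.37, the MRL male mean of 9.22 lay between the middle and high means, and F1 males 1146, 1152 and 1151 all fell within the range of the middle group.

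F2 females fell into 2 levels by the same criterion. The low group held 37 females (27.4%, exact 95% interval 20.1 to 35.7%), between 6.10 and 6.77 with a mean of 6.36 and an SD of 0.16. The other 98 females (72.6%, 64.3 to 79.9%) ran from 7.06 to 9.49, with a widest empty stretch of 0.15, a mean of 8.19 and an SD of 0.45. The female at 7.06 was library 2116, whose sex transcripts lay between the sexes. Male library 2308, at the similar level of 7.08, was placed in the low group of males. Their share of 72.6% thus counts library 2116 among the 98 females. The share of this upper group can be set beside 75%, the sum of 2 of the 3 single-locus classes, a value chosen after the 2 levels were seen. A mixture of 3 components scored lower in females, with a criterion of -277.5 against -271.5 for 2 components, where the higher value is preferred. Over both sexes the low group held 76 of 282 animals (27.0%, 21.9 to 32.5%).

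The low level was alike in the sexes, with component means of 6.37 in males and 6.36 in females, while the fitted components above it differed in number and position. The male fit had a common SD and the female fit separate SDs. Whether the number of levels differs between the sexes was not tested. Between 9 and 10 there were 33 F2 males and 6 F2 females. Between 7.8 and 9 there were 75 males and 78 females, and between 6.8 and 7.8 there were 1 male and 14 females.

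**Figure D2:**
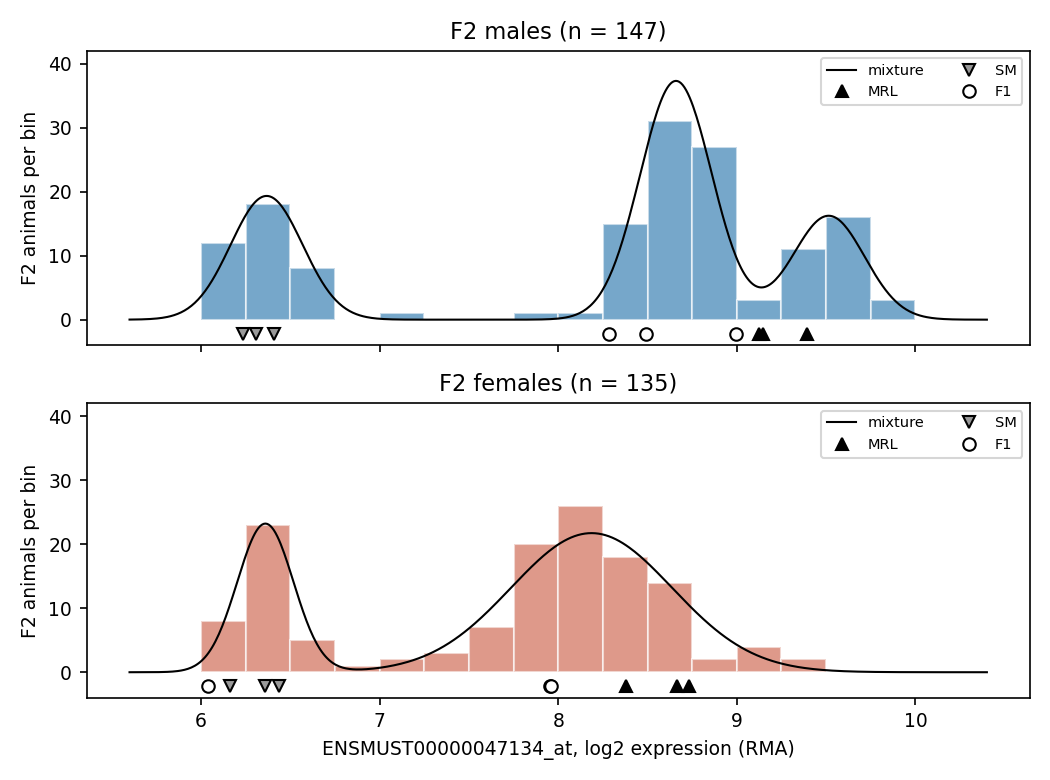
Number of F2 animals per 0.25 log2 units of ENSMUST00000047134_at in males (above) and females (below), with the fitted normal mixture as a line and single MRL (black triangles), SM (grey triangles) and F1 (circles) animals under the axis. Males form 3 peaks near 6.37, 8.66 and 9.51, and females form 2 near 6.36 and 8.19.

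Set against the parental ranges, over 50% of F2 animals of each sex lay between the strains in the values as deposited. In males, 33 (22.4%, exact 95% interval 16.0 to 30.1%) were at or above the lowest MRL male at 9.13, 87 (59.2%, 50.8 to 67.2%) lay between the strains, and 27 (18.4%, 12.5 to 25.6%) were at or below the highest SM male at 6.41. In females, 28 (20.7%, 14.2 to 28.6%) were at or above the lowest MRL female at 8.38, 79 (58.5%, 49.7 to 66.9%) lay between, and 28 (20.7%, 14.2 to 28.6%) were at or below the highest SM female at 6.44. These limits rest on 3 animals each. With batch effects estimated in F2 subtracted, 44.2% of males were at or above the MRL limit, 44.2% lay between and 11.6% were at or below the SM limit, while 63.0% of females lay between. That estimate also takes in how many F2 animals of each level a batch held, so these shares cannot isolate an effect of hybridisation. The subtraction took the SD from 0.09 to 0.26 in SM males, 0.15 to 0.27 in MRL males and 0.19 to 0.36 in MRL females. In SM females the SD went from 0.14 to 0.06. With limits midway between the SM mean, the parental midpoint and the MRL mean, 61.9% of males were nearest MRL and 12.2% nearest the midpoint, since the mean of the middle group of males, 8.66, lies above the limit of 8.50 between them. In females 45.2% were then nearest MRL and 27.4% nearest the midpoint.

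The transcript was higher in F2 males than in F2 females. The mean was 8.24 ± 1.20 in males and 7.69 ± 0.91 in females (SD over all F2 animals of the sex). These means pool the levels, and the low level was alike in the sexes, at 6.37 in males and 6.36 in females. With batch in the fit the difference between the pooled means was 0.57 log2 units (SE 0.13, 95% interval 0.31 to 0.82), 1.48-fold, with an adjusted p of 8.23e-05 by limma. Sex differences were common in these livers, with 45% of all transcripts called in that fit, and this one ranked 287 of 34406 by size. In 13 batches with F2 animals of both sexes the males had the higher mean in 11, with differences from -0.37 to 1.30 and a median of 0.62. Without the libraries of doubtful sex the difference was 0.58 with an adjusted p of 5.81e-05.

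In the parental and F1 animals the male minus female difference, averaged over MRL, SM and F1, was 0.63 (SE 0.19). These are the animals whose levels chose the transcript, and the wide F1 range enters both the difference and its SE, so these values are a description. The difference was 0.42 (SE 0.083) without F1 female 1145, 0.31 (SE 0.071) in the MRL and SM animals alone and 0.69 (SE 0.20) without library 1146. The limma fit of the 18 animals called 9.04% of all transcripts for sex and gave this one an adjusted p of 0.046. That call was lost in 14 of 18 fits that left out 1 animal, with arrays centred on their median, with the trend and robust options and with batch as a fixed term (0.50, adjusted p = 0.0996), and nothing is rested on it.

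By strain, the male minus female difference in means was 0.63 in MRL and -0.0024 in SM. The contrast between these, which compares the sexes in their strain difference, was 0.63 with an SE of 0.47 and a 95% interval from -0.36 to 1.62 in the limma fit with F1 (adjusted p = 0.419), where 0.221% of transcripts were called. In the MRL and SM animals alone, which chose the transcript too, the SE was 0.14 and the interval ran from 0.33 to 0.94 (adjusted p = 0.0538). Without F1 female 1145 the interval ran from 0.22 to 1.05 (adjusted p = 0.116). The width of the interval thus depended on the spread of the F1 animals, and the contrast is given as a description.

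Over the 282 F2 animals, 98 of 34405 other transcripts covaried with ENSMUST00000047134_at after sex and batch were taken into account, 0.285% of those tested (limma, adjusted p under 0.05). The slope was positive for 60 and negative for 38, and 1701 had an unadjusted p under 0.05. The partial correlation, sex and batch removed, ran from 0.23 to 0.79 among the positive ones with a median of 0.45, and from -0.65 to -0.23 among the negative ones with a median of -0.31. Slopes were small against the range of the transcript itself, with a median of 0.063 log2 units per log2 unit for the positive ones and -0.049 for the negative ones. The 98 rows are not 98 separate signals: 37 of them had another called row with which they correlated above 0.9 in F2, and joining such rows left 75 groups. With the level of each animal as a factor in the fit, 462 transcripts were called, and 17 of the 98 were among them, all 17 with the same sign. That fit was not repeated without the libraries of doubtful sex.

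The mean levels of most covarying transcripts differed between the parental strains in the direction of their slope. Of the 60 with a positive slope, 57 (95%) were higher in MRL than in SM, with a median MRL minus SM difference of 0.26. Of the 38 with a negative slope, 4 were higher in MRL, and the median difference was -0.20. Over all 34405 other transcripts 53.6% were higher in MRL and the median difference was 0.0063. The size of the strain difference, whatever its sign, had a median of 0.25 among the 98 and of 0.052 over all 34405, the 98 included. At an absolute partial correlation of at least 0.3, all 49 positive transcripts were higher in MRL and all 20 negative ones lower. The parental animals did not enter the F2 fit, but the transcript itself was chosen for its difference between them.

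**Figure D3:**
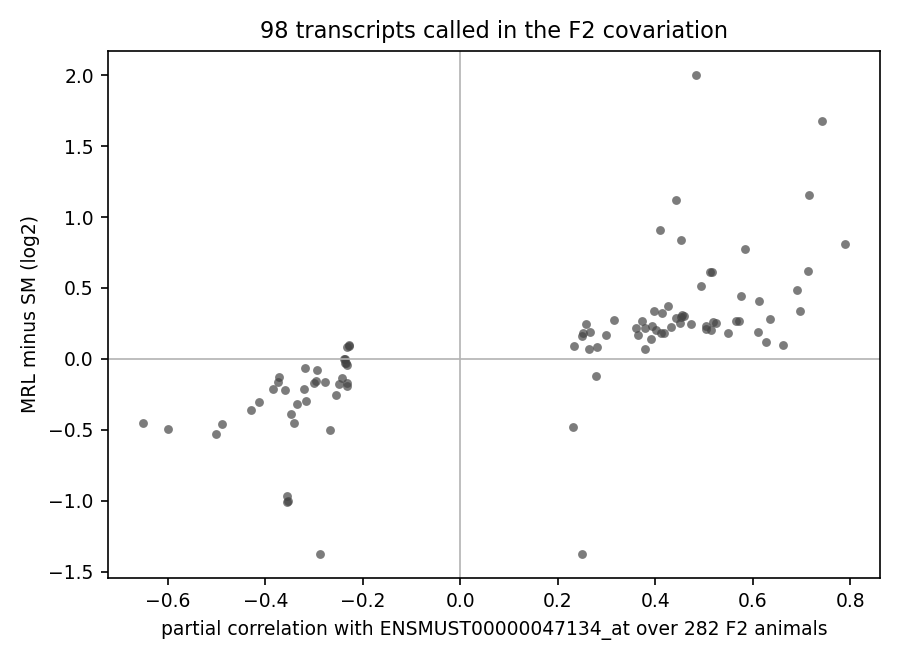
MRL minus SM difference (log2, mean of 6 animals a strain) against the partial correlation with ENSMUST00000047134_at over 282 F2 animals, for the 98 transcripts called. Of 60 transcripts to the right of 0, 57 lie above the horizontal line, and of 38 to the left, 4 do.

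The calls were repeated in each sex on separate animals. In F2 males 70 transcripts were called (0.203%), 54 with positive and 16 with negative slopes. In F2 females 52 were called (0.151%), 43 positive and 9 negative. Of the 70 called in males, 65 (92.9%) had the same sign in females and 43 (61.4%) were also called there. Of the 52 called in females, 51 (98.1%) had the same sign in males and 43 (82.7%) were also called there, while 1 was called with the opposite sign. No share with the same sign over all transcripts is given here, and called rows that move together count separately. Leaving out the doubtful libraries gave 96 calls over both sexes, 68 in males and 51 in females.

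The 4 transcripts described next are those with the 2 highest and the 2 lowest partial correlations. That correlation is pooled over the levels and serves here to rank transcripts. Because the F2 values fall into separate levels, the median at each level and the correlation within a level are given beside it.

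ENSMUST00000026411_at had the highest partial correlation, 0.79. It stood at 8.97 in F2 males of the high group, 8.69 in the middle group and 8.31 in the low group (medians of 33, 75 and 39 males). In F2 females its median was 9.05 in the upper group and 8.57 in the low group (98 and 37 females). It thus stepped up with the level of ENSMUST00000047134_at in both sexes. The slope was 0.19 ± 0.011 in F2 males (adjusted p = 2.84e-33 by limma) and 0.25 ± 0.020 in F2 females (SE, adjusted p = 2.06e-18 by limma). Within the middle group of males the correlation was 0.41 and within the upper group of females 0.37, while it was 0.19 and -0.04 in the low and high groups of males and -0.17 in the low group of females.

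In the parents ENSMUST00000026411_at measured 8.86, 8.90 and 9.17 in MRL males and 9.31, 9.45 and 9.62 in MRL females. It measured 8.36, 8.39 and 8.47 in SM males and 8.18, 8.46 and 8.58 in SM females. The strains did not overlap in either sex, and the mean difference was 0.81. F1 female 1145, lowest for ENSMUST00000047134_at, was also the lowest F1 female here, at 8.67 against 8.92 and 9.15.

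ENSMUST00000026464_at followed it with a partial correlation of 0.74, and its relation depended on sex. In F2 males its median was 9.69 in the high group, 9.03 in the middle group and 7.20 in the low group. In F2 females it was 11.30 in the upper group and 11.18 in the low group. The slope was 0.78 ± 0.033 in F2 males (SE, adjusted p = 2.03e-45 by limma). In F2 females it was 0.047 ± 0.018 and did not pass that test over all transcripts (adjusted p = 0.99987 by limma). With batch means removed, the pooled correlation in F2 females was weak and positive, with Pearson's r of 0.23 and Spearman's rho of 0.24. The transcript was picked by its correlation over F2 animals that include these females, so both values are a description. Within the upper and low groups of females r was 0.12 and -0.14. The difference between the slopes was 0.75 ± 0.044 (SE, adjusted p = 3.69e-40 by limma). Without the libraries of doubtful sex it was 0.76.

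The steps of ENSMUST00000026464_at in males lay between the groups and not within them. Its correlation with ENSMUST00000047134_at was -0.23 within the high group and -0.25 within the middle group. In the low group Pearson's r was 0.49 and Spearman's rho 0.05. Male library 2308 stood at 10.67 there, the highest value of any F2 male, and female library 2116 at 10.45 was the lowest of any F2 female. Both scored between the sexes.

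In MRL males ENSMUST00000026464_at measured 9.40, 9.44 and 9.51, against 6.71, 6.81 and 7.03 in SM males. In MRL females it measured 11.18, 11.19 and 11.27, against 10.16, 10.53 and 10.66 in SM females. The libraries labelled F1 male stood at 8.64 (1152), 9.01 (1151) and 11.22 (1146), and F1 females at 11.25, 11.28 and 11.32. Library 1146 lay at the female level, as its score did, and F1 female 1145 did not stand apart for this transcript.

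ENSMUST00000061995_at had the lowest partial correlation, -0.65. In F2 males its median was 8.37 in the high group, 8.61 in the middle group and 8.75 in the low group. In F2 females it was 8.65 in the upper group and 8.89 in the low group. The slope was -0.087 ± 0.0093 in F2 males (adjusted p = 3.95e-13 by limma) and -0.14 ± 0.013 in F2 females (SE, adjusted p = 1.01e-14 by limma). Within the upper group of females the correlation was -0.49, and within the middle group of males it was -0.0079. Its mean was 8.33 in MRL and 8.79 in SM, a difference of -0.45, and F1 female 1145 had the highest F1 value, 8.87.

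ENSMUST00000060782_at came next, at -0.60. In F2 males its median was 10.78 in the high group, 10.96 in the middle group and 11.14 in the low group. In F2 females it was 10.94 in the upper group and 11.11 in the low group. The slope was -0.092 ± 0.0096 in F2 males (adjusted p = 2.04e-13 by limma) and -0.094 ± 0.014 in F2 females (SE, adjusted p = 1.22e-06 by limma). Within the middle group of males the correlation was positive, 0.30, and within the upper group of females it was -0.28. Its mean was 10.69 in MRL and 11.19 in SM, a difference of -0.50. F1 female 1145 stood at 11.31, above all 6 SM animals, while the other 5 F1 animals lay between 10.83 and 10.90.

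**Figure D4:**
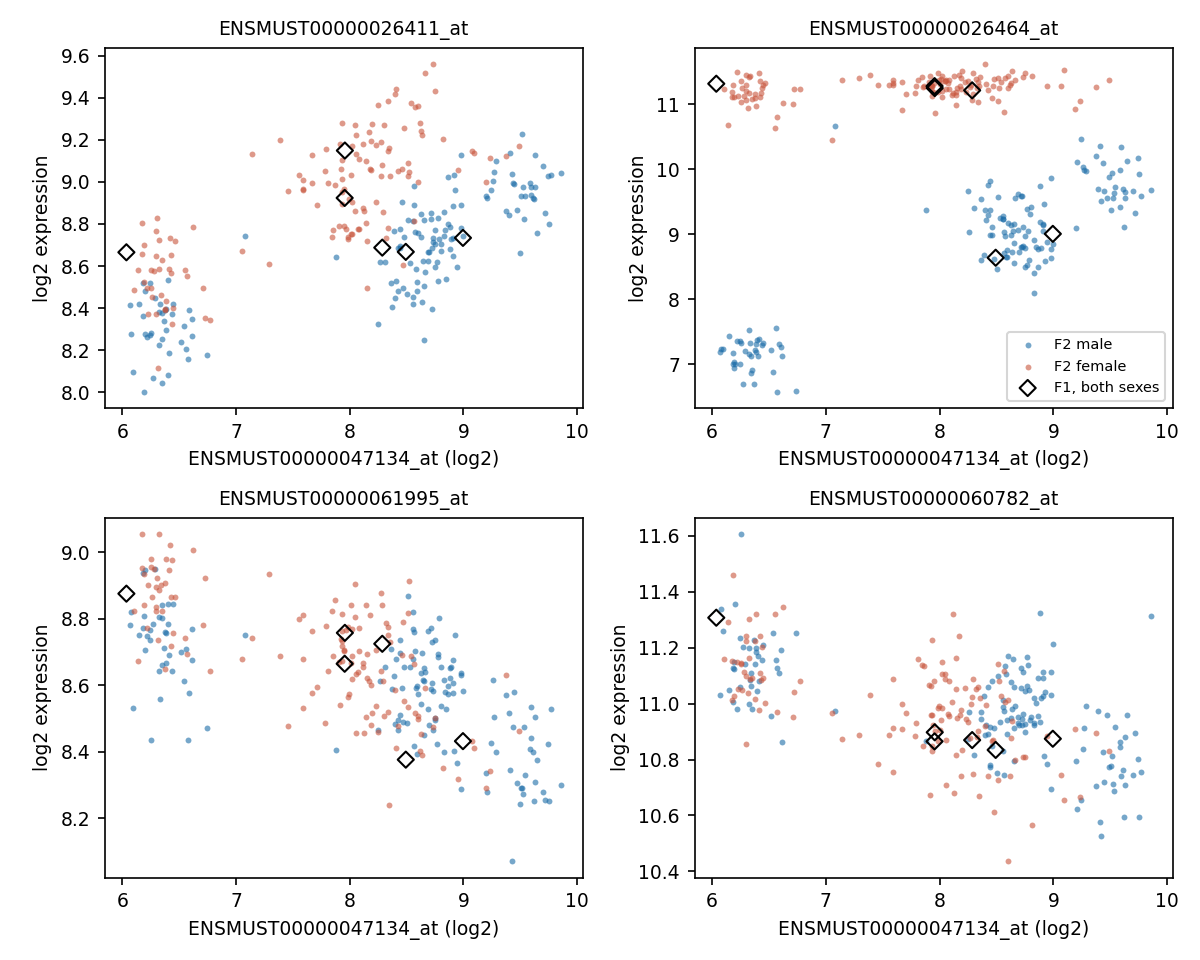
Level of the 4 transcripts most like or most opposed to ENSMUST00000047134_at (vertical axes, log2) against its own level (horizontal axes, log2) in F2 males (blue), F2 females (red) and F1 animals (diamonds). ENSMUST00000026464_at steps up from group to group in males, with medians of 7.20, 9.03 and 9.69, and has medians of 11.18 and 11.30 in the 2 groups of females.

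Slopes differed between F2 males and F2 females for 7 of 34405 transcripts (0.0203%; limma interaction test, adjusted p under 0.05; 1029 at an unadjusted p under 0.05). All 7 had the more positive slope in males. In males all 7 were called, and in females 1 was. The slopes had opposite signs in 4 of the 7. The single one called in both sexes, ENSMUST00000026902_at, was singled out after its values were seen. Its slope was 0.062 ± 0.011 in F2 males (adjusted p = 5.17e-05 by limma) and -0.070 ± 0.015 in F2 females (SE, adjusted p = 0.00592 by limma), with a difference of 0.13 ± 0.018 (adjusted p = 9.81e-08). It was not called in the fit over both sexes.

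**Figure D5:**
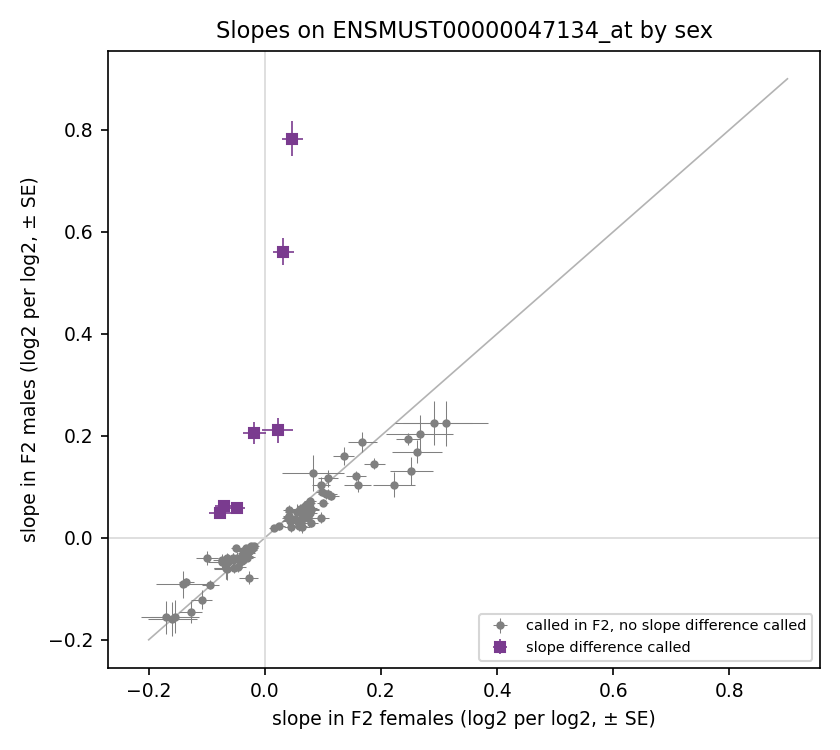
Slope on ENSMUST00000047134_at (log2 per log2, bars ± SE) in F2 males against F2 females, for the transcripts called over both sexes (grey circles) and for the 7 whose slopes differed between the sexes (purple squares); the diagonal marks equal slopes. The 7 lie above the diagonal, with ENSMUST00000026464_at at 0.78 in males and 0.047 in females.

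The low value of F1 female 1145 was compared with its other transcripts. Over 22 covarying transcripts whose strains lay at least 0.3 apart in each sex, this animal's median position between SM (0) and MRL (1) was 0.25, against medians of 0.53 to 0.73 in the other 5 F1 animals. It lay under 0.25 for 12 of the 22, and the others for 1 to 3. Called rows that move together count separately here too. Over 132 transcripts that were not called as covarying and whose strains lay at least 0.8 apart, its median position was 0.36, against 0.43 to 0.62. In this comparison each library was set against the parents of its labelled sex. Against the female parents, library 1146 had a median position of 0.47 over the 22 transcripts and 0.48 over the 132. Its count and interquartile range were not taken this way. The interquartile range of those 132 positions was 0.60 in F1 female 1145 and 0.24 to 0.50 in the other F1 animals. It was 0.45 in the median F2 male, with a range of 0.24 to 0.77. In the median F2 female it was 0.46, with a range of 0.28 to 0.76. The array of F1 female 1145 was in batch 10, with 24 arrays, which also held 3 of the 5 libraries of doubtful sex. Whether this animal's generation label or handling plays a part in its value was not tested.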

How the data were processed

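Livers of 300 mice were profiled singly on Affymetrix Mouse Gene 1.0 ST arrays. The authors deposited log2 values for Ensembl transcripts. Per the submitters' processing notes these came from RMA (affy, R 2.11). RMA corrects background, normalizes arrays to one distribution and summarises probes. No Ensembl release or build is named in the sources used here. Values ran from 4.66 to 13.60, and no 2 arrays were identical (highest correlation 0.995). Precision is limited by the arrays in each group.

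The transcript, the lists and the tests were chosen with earlier results of these data known. The gene table named 0 of 34406 identifiers, so no gene list, marker or sequence was used, and the text names the 2 called transcripts with the highest and the 2 with the lowest partial correlation.

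Groups came from the labels. Tests used limma 3.58.1 in R 4.3.3 (lmFit, eBayes, two-sided) over all transcripts, with Benjamini-Hochberg adjustment and a threshold of 0.05. F2 fits held sex and batch, and the fit of the 18 parental and F1 animals held 6 group means. Covariation was the slope of each other transcript on the log2 value of ENSMUST00000047134_at. Mixtures were fitted with mclust 6.1.1, and shares have exact Clopper-Pearson 95% intervals, which cover counting error only. The fits were tested on simulated data. MRL and SM animals share numbers within a sex. Deviations from the group means of same-numbered animals correlated between -0.08 and 0.22, so the numbers were not taken to pair them. Alternatives were other normalizations, array spread, moderation options, a filter on low transcripts, batch treatments, ranks, other limits and leaving out animals. After the data were seen, mixture components, as groups or as a factor, and further values without the libraries of doubtful sex were added. Figures were drawn with matplotlib 3.10.9.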

Additional observations from a re-analysis of the deposited data

Results flagged for a closer look

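The slope of ENSMUST00000026464_at on ENSMUST00000047134_at differed between the sexes in F2. It was 0.78 ± 0.033 in F2 males and 0.047 ± 0.018 in F2 females, a difference of 0.75 log2 units per log2 unit (SE 0.044), and the interaction test of limma gave an adjusted p of 3.69e-40. Over the alternatives that changed normalization, batch, moderation, filter, the form of the relation or the libraries used, 7 or 8 transcripts had slopes that differed between the sexes, and without the libraries of doubtful sex the difference for this transcript was 0.76.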

How the results depend on the processing

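The F2 sex difference of ENSMUST00000047134_at kept its direction and its call under the 8 alternatives that gave a p (0.55 to 0.58, adjusted p from 5.11e-05 to 9.70e-05 by limma), and the mean of the differences within batches, which has no p, was 0.55. The sex difference in MRL, SM and F1 stayed positive but missed the threshold with arrays centred on their median (0.65, adjusted p = 0.0512), with the trend and robust options (0.63, adjusted p = 0.122) and with batch as a fixed term (0.50, adjusted p = 0.0996). Leaving out 1 animal at a time gave 0.42 to 0.74 (adjusted p from 0.00412 to 0.103), past the threshold in 4 of 18 fits, those without F1 females 1145, 1149 or 1150 or library 1146. The strain by sex interaction ran from 0.53 to 0.71 without single animals (adjusted p from 0.116 to 0.585) and was 0.63 (SE 0.14, adjusted p = 0.0538) in the MRL and SM animals alone. With the animal number as a replicate block it was 0.63 with an adjusted p of 0.0295. Because the numbers were not taken to pair the animals, no weight is put on that value. The MRL, SM and F1 animals are those whose levels chose the transcript. Both contrasts in them are therefore a description, and nothing is rested on their adjusted p.

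The counts of covarying transcripts stayed within 1.5 times under the other alternatives. With the mixture component as a factor, which leaves only relations within a level, 462 were called in F2 (255 positive, 207 negative), 42 in males and 169 in females. Of the 462, 17 were among the 98, and these fits kept the libraries of doubtful sex. The slope of ENSMUST00000060782_at in males was then 0.11 (adjusted p = 0.689), reversed in sign and not called. The causes were not tested.

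Shares by parental interval moved with the limits. With the nearest of the SM mean, midpoint and MRL mean, males were 61.9% nearest MRL, 12.2% nearest the midpoint and 25.9% nearest SM, and females 45.2% nearest MRL and 27.4% nearest the midpoint. With F2 batch effects subtracted, 44.2% of males lay above, 44.2% between and 11.6% below the limits, 14.1% of females lay below, and the mean was 9.03 in MRL males and 6.15 in SM males. The subtracted effects also depend on the F2 levels held by each batch. By mixture component 26.5% of males were low. Signal near the array floor limits what can be read within the low group.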

Other observations

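Within the levels of ENSMUST00000047134_at, its value was set against the score of the 51 sex-dependent transcripts, as 5 relations (3 groups of males and 2 of females). In the middle group of 75 F2 males Pearson's r was 0.42 (permutation p = 0.00018, adjusted over the 5 relations 9e-04) and Spearman's rho was 0.35 (permutation p = 0.00193, adjusted 0.00965), so that males with the more male score had the higher level. Without the 2 males farthest from the group's median level r was 0.29, and with batch means removed it was 0.40. In the low group of 39 males r was -0.51 (permutation p = 0.0118, adjusted 0.0295) with a rho of -0.03, and r was -0.02 without library 2308, so the value rests on that library. The other 3 relations had r between 0.14 and 0.22 and did not pass the test. Without the 3 libraries of doubtful sex r in the upper group of females was 0.27 (95 females, permutation p = 0.00764, adjusted 0.0191), and rho was 0.16 (permutation p = 0.129, adjusted 0.324). Without the 2 females farthest from the median level that r was 0.19.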
